A study of Danio rerio with 30 samples.

Results

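The genes described here serve the visual cycle and retinoid transport and were chosen by name: the isomerase gene rpe65a, the paralogs rlbp1a and rlbp1b, the retinol receptor gene stra6, the opsin gene rgra, the dehydrogenase gene rdh5 and the carrier genes rbp3 and rbp4l. The choice was made with earlier results of these data known. All 8 of 8 genes were on the array, each read by 1 probe set, among 19260 genes tested. Vertebrate photopigments are rebuilt by the visual cycle, in which all-trans-retinal released by light is turned back into 11-cis-retinal. The classical cycle runs between photoreceptors and the retinal pigment epithelium, the pigmented cell layer behind the retina, and a second route that serves cones uses Müller glia. The retinoid itself arrives from the blood on retinol-binding protein.

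Each array held total RNA from 1 pool of 5 AB zebrafish. By the labels the tissue was the animal ahead of the gills, so retina, pigment epithelium, brain, skin and other tissues were measured together. Embryos were injected into the yolk with a morpholino, phenol red and nCerulean mRNA. Standard control (SC) fish carried an oligonucleotide against human beta-globin, and knockdown (KD) fish one against a splice donor of grb10a, an adaptor of insulin and insulin-like growth factor receptors. By the design text this site is at coding exon 3, but the treatment notes name exon 4 too, and the labels do not settle which was used. Fish were collected at 5 ages, 5 to 20 days post fertilisation (dpf) in steps of 5 days and then 30 dpf, with 3 pools for each of the 10 groups and 30 arrays in all. Values are log2 signals as deposited, given as mean ± SD (n = 3), and differences are knockdown minus control. SE is the standard error of a difference. The words rose and fell stand for an adjusted p under 0.05 in limma, with Benjamini-Hochberg adjustment over all genes. A gene's signal can drop through fewer cells of a type or less RNA per cell, and in RNA from whole heads these cannot be told apart. Genes of liver, exocrine pancreas and intestine, organs behind the gills, were far higher in control pools at 5 dpf than in any other group. Every comparison with these pools carries this difference, and its part was not tested. Levels of different genes are not compared, since each probe set has its own brightness.

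At 30 dpf, where 1.00% of all genes were called, rpe65a, rlbp1b and stra6 fell in knockdown heads. In controls these genes rose between 20 and 30 dpf, and in knockdown none of them was called over this step. The steps were compared directly after the values had been seen. They differed for rpe65a and rlbp1b, while for stra6 the difference was not called (limma, adjusted p = 0.0595). This comparison equals the knockdown difference at 30 dpf minus that at 20 dpf, so it is not separate support for the falls. The falls in knockdown and the rises in controls share the control arrays of 30 dpf. At 5 dpf rlbp1a and rbp3 rose, at 10 dpf rbp4l fell, at 15 dpf rgra rose, and rdh5 passed the test at no age.

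Counted by age, 2 of the 8 genes rose and none fell at 5 dpf, where 12.0% of all genes were called and 5.47% were called higher. At 10 dpf 1 fell, against 2.67% of all genes called and 0.914% called lower. At 15 dpf 1 rose, against 12.0% called and 9.18% called higher. At 20 dpf limma called 0 of the 8, with 3 at an unadjusted p under 0.05, against 14.5% of all genes called. At 30 dpf 3 fell and none rose, while 1.00% of all genes were called and 0.639% were called lower. With 1 array of this age left out at a time, 0 to 2 of the 8 were called. Over all genes 103 to 175 were then called, against 193 in the main fit. The median difference of the 8 genes was 0.22, -0.32, -0.05, -0.08 and -0.37 at the 5 ages in order, beside 0.02, 0.04, 0.08, -0.01 and -0.04 over all genes. Knockdown and control arrays did not overlap for 3, 4, 1, 3 and 5 of the 8 genes at the 5 ages in order, against 28.6%, 14.3%, 29.7%, 37.5% and 21.3% of all genes. The size of the knockdown difference varied with age for 6 of the 8 in limma's F test, where 31.7% of all genes passed. The exceptions were rdh5 (adjusted p = 0.0563) and rlbp1a (adjusted p = 0.0839). Of the 6, stra6 was lost in this test when single arrays of 5, 15, 20 or 30 dpf were left out, and rbp4l with control or knockdown replicate 2 of 5 dpf left out.

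**Figure D1:**
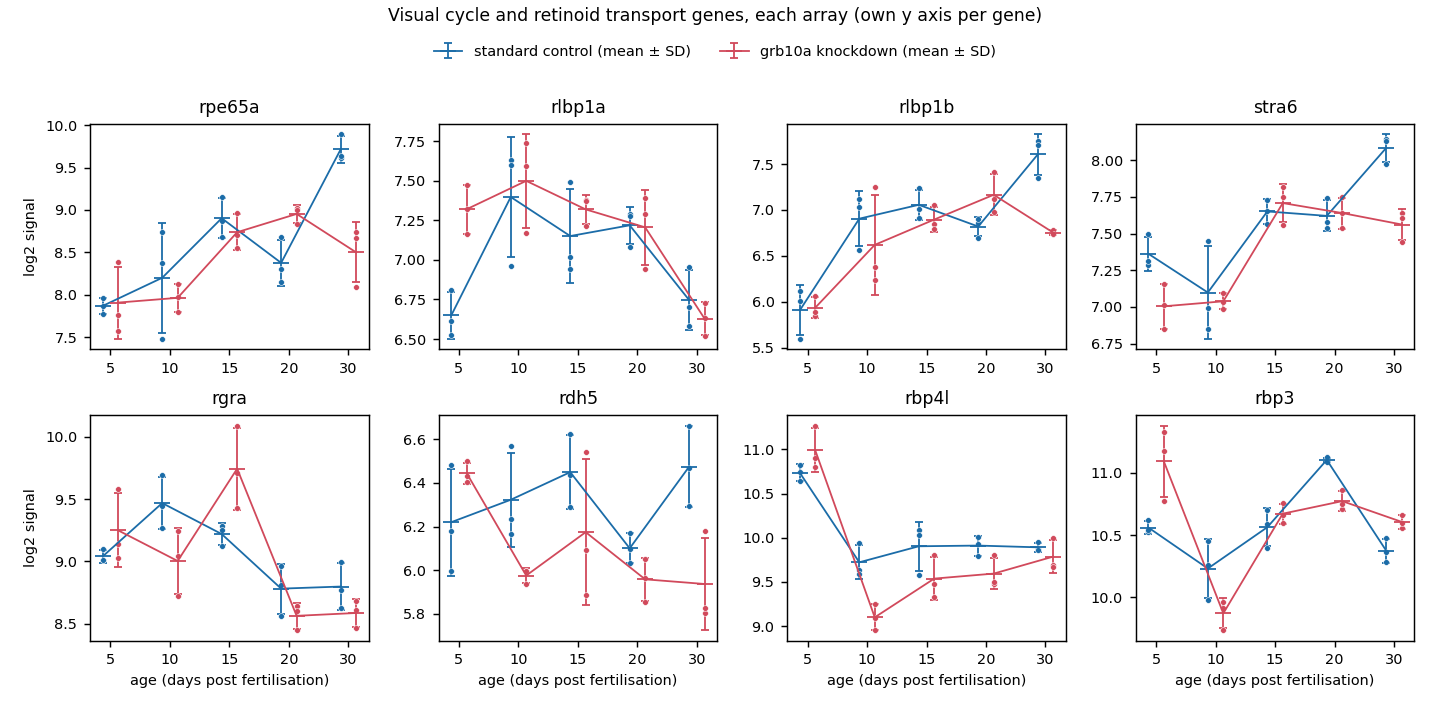
Log2 signal of each gene (y axis, own scale per gene) against age in days post fertilisation (x axis). Points are single arrays, and dashes with bars are the mean ± SD of 3 pools, in blue for control and red for knockdown. At 30 dpf the control arrays of rpe65a, rlbp1b, stra6 and rdh5 lie above all knockdown arrays, and those of rbp3 lie below. Arrays did not overlap for 21.3% of all genes at this age.

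The gene rpe65a encodes the isomerohydrolase of the pigment epithelium, which makes 11-cis-retinol from retinyl esters. At 30 dpf its signal was 9.90, 9.61 and 9.64 in the control pools and 8.74, 8.09 and 8.67 in the knockdown pools. Every knockdown pool lay below every control pool, and knockdown replicate 2 was the lowest. The fall was 1.21 (SE 0.23, 95% interval -1.70 to -0.73, adjusted p = 0.00529), or 2.32-fold. At 20 dpf the order was opposite, with 8.68, 8.15 and 8.30 in controls and 9.03, 8.83 and 8.998 in knockdown. These arrays did not overlap either, but the difference of 0.58 (SE 0.23) had an adjusted p of 0.101. At 5, 10 and 15 dpf the groups overlapped, with differences of 0.04, -0.24 and -0.17. The control pools at 10 dpf were widely spread, at 8.74, 7.48 and 8.37.

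Controls at 30 dpf held the highest mean of rpe65a over the 10 groups, 9.71 ± 0.16, and none of their arrays overlapped with the next group, knockdown at 20 dpf (8.95 ± 0.10). From there down, each group overlapped with its neighbour in the order, through knockdown at 30 dpf (8.50 ± 0.35) to controls at 5 dpf (7.87 ± 0.10). In controls the gene rose by 0.70 from 10 to 15 dpf (SE 0.23, adjusted p = 0.0289) and by 1.34 from 20 to 30 dpf (SE 0.23, adjusted p = 9.23e-05). The rise from 5 to 30 dpf was 1.85 (SE 0.23, adjusted p = 3.54e-07), or 3.60-fold. Genes of liver, pancreas and intestine fell in controls over the same time, and their part was not tested.

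The paralogs rlbp1a and rlbp1b encode cellular retinaldehyde-binding proteins, which hold 11-cis-retinoids inside pigment epithelium and Müller glia. For rlbp1b the control pools at 30 dpf were at 7.75, 7.35 and 7.71 and the knockdown pools at 6.74, 6.79 and 6.74. The knockdown pools lay close together and below all controls. The fall was 0.85 (SE 0.19, 95% interval -1.25 to -0.45, adjusted p = 0.023), or 1.80-fold. At 20 dpf the knockdown pools, at 7.11, 6.97 and 7.41, were above the controls, at 6.86, 6.70 and 6.90, with a difference of 0.35 (SE 0.19, adjusted p = 0.255). Differences at 5, 10 and 15 dpf were 0.03, -0.29 and -0.16, with overlapping arrays. Controls at 30 dpf again had the highest mean, 7.60 ± 0.22, although their lowest array overlapped with knockdown at 20 dpf (7.16 ± 0.22). The 2 groups at 5 dpf, at 5.91 ± 0.27 in controls and 5.94 ± 0.12 in knockdown, were apart from all others, with means below 6.06, the limit of the dimmest 33.3% of genes. In controls rlbp1b rose by 1.00 from 5 to 10 dpf (SE 0.19, adjusted p = 0.000316) and by 0.78 from 20 to 30 dpf (SE 0.19, adjusted p = 0.00291). The earlier rise starts from a dim value and may be understated, which was not tested.

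For rlbp1a the contrast lay at the youngest age. At 5 dpf its signal was 6.61, 6.81 and 6.52 in controls and 7.16, 7.47 and 7.32 in knockdown, and the groups did not overlap. The rise was 0.67 (SE 0.17, 95% interval 0.31 to 1.03, adjusted p = 0.0103), or 1.59-fold. Without knockdown replicate 2 it was 0.59 (adjusted p = 0.056). Knockdown at 5 dpf (7.32 ± 0.16) overlapped with controls at 10 dpf (7.40 ± 0.38), to which controls rose by 0.75 (SE 0.17, adjusted p = 0.00189). Both rises share the control arrays of 5 dpf. In these arrays genes of liver, pancreas and intestine were higher than in either compared group, and their part was not tested. From 10 dpf on the groups overlapped at each age, with differences of 0.10, 0.17, -0.01 and -0.12. At 30 dpf the 95% interval was -0.47 to 0.24. Whether the 2 paralogs responded differently at this age was not tested. Both treatments fell from 20 to 30 dpf, by 0.47 in controls (SE 0.17, adjusted p = 0.0386) and by 0.58 in knockdown (SE 0.17, adjusted p = 0.0293), and each call was lost when single arrays were left out: replicate 1 or 3 of either age in controls, and replicates 1 or 3 of 20 dpf and 1 or 2 of 30 dpf in knockdown. In the order of the 10 groups each overlapped with its neighbour, from knockdown at 10 dpf (7.50 ± 0.30) to knockdown at 30 dpf (6.63 ± 0.10).

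The gene stra6 encodes the membrane receptor through which cells take up retinol from its plasma carrier. At 30 dpf the control pools were at 8.15, 7.97 and 8.13 and the knockdown pools at 7.64, 7.44 and 7.60, without overlap. The fall was 0.52 (SE 0.12, 95% interval -0.78 to -0.27, adjusted p = 0.0328), or 1.44-fold. At 5 dpf knockdown (6.85, 7.16 and 7.01) was also below controls (7.28, 7.49 and 7.31), with a difference of -0.36 (SE 0.12) that missed the threshold (adjusted p = 0.0608). It passed with an intensity trend (adjusted p = 0.0465), without dim genes (0.0443), after a second quantile normalization (0.0289) and without knockdown replicate 2 (0.0494), and over the other alternatives the adjusted p was 0.054 to 0.223. The 2 treatments overlapped at 10, 15 and 20 dpf, where the differences were -0.06, 0.06 and 0.02. Controls at 30 dpf (8.08 ± 0.09) stood above all 9 other groups, and the remaining groups each overlapped with the next. In controls stra6 rose by 0.55 from 10 to 15 dpf (SE 0.12, adjusted p = 0.0018) and by 0.46 from 20 to 30 dpf (SE 0.12, adjusted p = 0.00573).

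**Figure D2:**
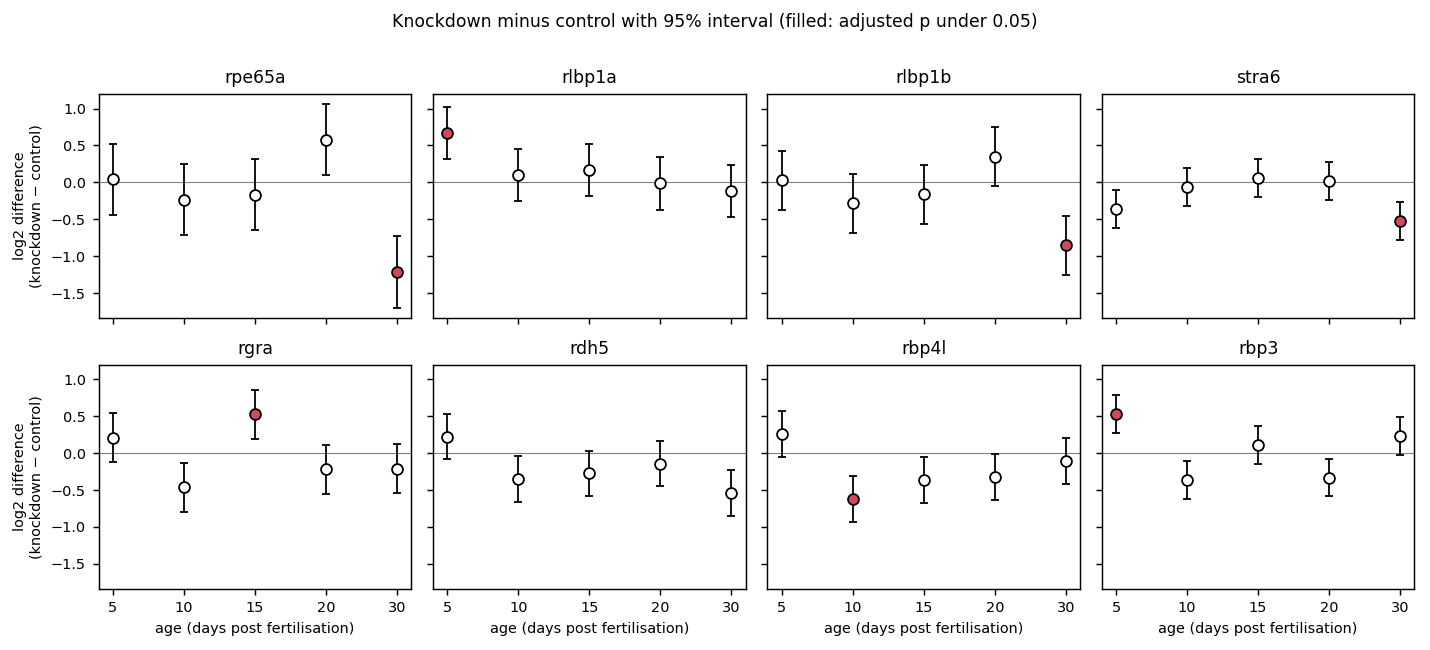
Difference between knockdown and control on the log2 scale (y axis) at each age in days post fertilisation (x axis), 1 panel per gene. Bars are 95% intervals from the fit over 30 arrays, and filled circles have an adjusted p under 0.05. The filled circles are rlbp1a and rbp3 at 5 dpf, rbp4l at 10 dpf, rgra at 15 dpf, and rpe65a, rlbp1b and stra6 at 30 dpf.

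The calls at 30 dpf stood at different distances from the threshold. Leaving out 1 array at a time, rpe65a kept an adjusted p between 0.00952 and 0.0453 in 5 of 6 cases. Without knockdown replicate 2, the lowest pool, its difference was -1.01 and the adjusted p 0.0665. The call of rlbp1b remained without control replicate 2 (adjusted p = 0.0222) and was lost in the other 5 cases, with values from -0.87 to -0.78 and adjusted p from 0.0715 to 0.142. That of stra6 was lost in each of the 6 cases (values from -0.58 to -0.46, adjusted p from 0.0502 to 0.175) and when the fit held no other age (adjusted p = 0.0785).

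The gene rgra encodes the retinal G protein-coupled receptor, an opsin of pigment epithelium and Müller glia that binds all-trans-retinal. At 15 dpf its signal was 9.28, 9.26 and 9.12 in controls and 10.09, 9.71 and 9.43 in knockdown, without overlap. The rise was 0.52 (SE 0.16, 95% interval 0.19 to 0.86, adjusted p = 0.0354), or 1.44-fold, and the knockdown pools were more widely spread than the controls. The call was lost when any array of this age other than knockdown replicate 3 was left out (adjusted p from 0.0503 to 0.237). Without knockdown replicate 1 the difference was 0.35. At 10 dpf the order was opposite, with 9.69, 9.45 and 9.27 in controls and 9.04, 8.72 and 9.25 in knockdown, a difference of -0.46 (SE 0.16, adjusted p = 0.129). At 5, 20 and 30 dpf the arrays overlapped, with differences of 0.21, -0.22 and -0.21. Among the 10 groups knockdown at 15 dpf was highest (9.74 ± 0.33) and overlapped with controls at 10 dpf (9.47 ± 0.21). The 4 groups at 20 and 30 dpf were the lowest, with means from 8.56 to 8.80.

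The gene rdh5 encodes a dehydrogenase that in mammals oxidises 11-cis-retinol to 11-cis-retinal in the pigment epithelium. Its group means lay between 5.94 and 6.47, close to the limit of 6.06. Differences of so dim a signal may be understated, which was not tested. At 30 dpf the controls were at 6.47, 6.66 and 6.29 and knockdown at 6.18, 5.80 and 5.83, without overlap. The difference of -0.54 (SE 0.15) had an adjusted p of 0.0923. It passed with each array centred on its median (-0.59, adjusted p = 0.048) and with array quality weights (-0.56, adjusted p = 0.0267). At 10 dpf knockdown (5.94, 5.996 and 5.996) was below controls (6.17, 6.24 and 6.57), with a difference of -0.35 (SE 0.15, adjusted p = 0.236). The arrays overlapped at 5, 15 and 20 dpf.

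The gene rbp3 encodes the interphotoreceptor retinoid-binding protein, which carries retinoids across the space between photoreceptors and pigment epithelium. At 5 dpf its signal was 10.53, 10.54 and 10.62 in controls and 10.77, 11.33 and 11.17 in knockdown. All knockdown pools were above the controls, a rise of 0.53 (SE 0.12, 95% interval 0.28 to 0.79, adjusted p = 0.00469), or 1.45-fold. It was kept without any 1 array of this age, and its adjusted p was 0.0694 when the fit held no other age. At later ages the sign of the difference varied, but no difference was called in the main fit. Knockdown was below all controls at 10 dpf (-0.36, SE 0.12, adjusted p = 0.123) and at 20 dpf (-0.33, SE 0.12, adjusted p = 0.0753), and above all controls at 30 dpf (0.23, SE 0.12, adjusted p = 0.497). Arrays did not overlap for 14.3%, 37.5% and 21.3% of all genes at these ages. Controls fell by 0.33 from 5 to 10 dpf (adjusted p = 0.0485), rose by 0.54 from 15 to 20 dpf (SE 0.12, adjusted p = 0.00524) and fell by 0.73 from 20 to 30 dpf (SE 0.12, adjusted p = 6.82e-05). In the order of group means controls at 20 dpf (11.10 ± 0.02) and knockdown at 5 dpf (11.09 ± 0.29) were highest and overlapped. Knockdown at 10 dpf (9.87 ± 0.12) was lowest and apart from the next group, controls at 10 dpf (10.23 ± 0.24).

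The gene rbp4l encodes a protein of the secreted retinol-binding protein family. At 10 dpf its signal was 9.63, 9.95 and 9.59 in controls and 9.09, 8.96 and 9.25 in knockdown, without overlap. The fall was 0.62 (SE 0.15, 95% interval -0.93 to -0.31, adjusted p = 0.0238), or 1.54-fold. It was lost without control replicate 2 (-0.51), knockdown replicate 1 (-0.62) or knockdown replicate 2 (-0.55), with adjusted p from 0.0802 to 0.178. Both groups at 5 dpf were far above the rest, at 10.74 ± 0.10 in controls and 10.99 ± 0.25 in knockdown, and overlapped with each other. In controls rbp4l fell by 1.01 from 5 to 10 dpf (SE 0.15, adjusted p = 1.14e-05) and then lay between 9.72 and 9.91. Differences at 5, 15, 20 and 30 dpf were 0.25, -0.37, -0.32 and -0.11.

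In controls the calls among the 8 genes were most at the first and the last step, as they were over all genes. From 5 to 10 dpf 3 rose and 2 fell, against 28.5% of all genes called, and from 10 to 15 dpf 2 rose, against 24.6%. From 15 to 20 dpf 1 rose, against 12.4%, and from 20 to 30 dpf 3 rose and 2 fell, against 31.5%. Between 5 and 30 dpf 3 rose and 1 fell, against 51.0%. All measured liver genes (10), exocrine pancreas genes (14) and intestine genes (8) fell in controls from 5 to 10 dpf and from 5 to 30 dpf. Their part in the steps of the 8 genes that start at 5 dpf was not tested. The rise of rgra (0.43, adjusted p = 0.0496) and the fall of rbp3 from 5 to 10 dpf were close to the threshold, and each was lost when single arrays were left out. The rise of rpe65a from 10 to 15 dpf was lost without control replicate 2 of 10 dpf or control replicate 1 or 3 of 15 dpf.

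Over the step from 20 to 30 dpf, rpe65a and rlbp1b rose in control heads but not in knockdown heads, and the steps themselves differed. This step was compared between the treatments after the values had been seen. In knockdown rpe65a changed by -0.45 over this step (SE 0.23, adjusted p = 0.227), rlbp1b by -0.41 (SE 0.19, adjusted p = 0.178) and stra6 by -0.08 (SE 0.12, adjusted p = 0.752). Of the 8 genes only rlbp1a, given above, was called in knockdown, where 11.6% of all genes were. The step in knockdown minus the step in controls was -1.79 for rpe65a (SE 0.33, adjusted p = 0.00124) and -1.20 for rlbp1b (SE 0.27, adjusted p = 0.007). For stra6 it was -0.54 (SE 0.18, adjusted p = 0.0595), and it passed with an intensity trend, without dim genes, with array quality weights and with only the compared arrays in the fit. For rbp3 it was 0.56 (SE 0.18, adjusted p = 0.0486), since the fall in controls was not matched in knockdown (-0.17, SE 0.12, adjusted p = 0.434). This made 3 of 8 genes, where 7.56% of all genes were called, and rbp3 dropped out when any 1 array was left out. It also dropped out under a second quantile normalization, median centring and the replicate block.

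**Figure D3:**
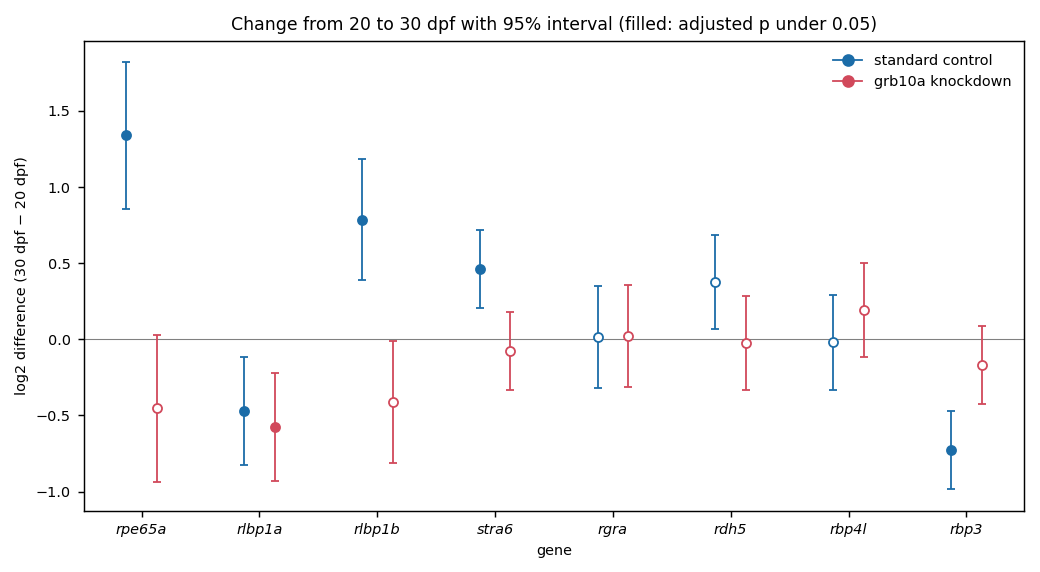
Change in log2 signal from 20 to 30 dpf (y axis) for each gene (x axis), in blue for control and red for knockdown. Bars are 95% intervals, and filled circles have an adjusted p under 0.05. For rpe65a and rlbp1b the control change is above 0 and the knockdown value below 0.

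Marker genes of eye cells were set beside these changes. At 30 dpf 1.00% of all genes were called, a share at which 0 calls is no result about a short list. There limma called 0 of 15 measured genes of the pigment epithelium and of pigment cells, a list which skin melanophores share. It also called 0 of 20 cone, 16 rod, 9 Müller glia and 14 lens genes. Glia of the brain share the genes of the Müller glia list, gfap among them, so in whole heads this list does not read the retina alone. The mean signal of the pigment list was 6.43 to 6.56 in controls and 6.45 in each knockdown array, so the groups overlapped. Its median difference was -0.04, and best1, a chloride channel of the pigment epithelium, was at -0.29 (adjusted p = 0.734). The lactate transporter gene slc16a8 was at 0.43 (adjusted p = 0.477), and rrh, the peropsin gene of the wider retinoid list, at -0.13 (adjusted p = 0.807). The median differences were -0.15 for cones, -0.07 for rods and -0.04 for Müller glia. The cone list lay at 8.72 to 8.80 in controls and 8.57 to 8.74 in knockdown. Over the control step from 20 to 30 dpf, in which rpe65a, rlbp1b and stra6 rose and 31.5% of all genes were called, 0 of the 15 pigment genes rose and 3 fell, 12 of the 20 cone genes fell and 1 rose, and 2 of the 9 Müller glia genes rose. Over the same step in knockdown, with 11.6% of all genes called, 2 pigment genes fell, 11 cone genes fell and 1 rose, and 1 Müller glia gene rose. The part of these shifts was not tested.

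At the earlier ages other lists moved beside the 8 genes. At 5 dpf, where 12.0% of all genes were called and 5.47% were called higher, 8 of 20 cone genes and 3 of 16 rod genes rose (medians 0.52 and 0.40), with cone list means of 8.37 to 8.50 in controls and 8.69 to 9.03 in knockdown, while 1 of 15 pigment genes, 2 of 14 lens genes and 0 of 9 Müller glia genes rose. All measured liver genes (10), exocrine pancreas genes (14) and intestine genes (8) fell. The liver list mean was 8.55 to 8.82 in control pools at 5 dpf and 5.19 to 6.28 in every other array. The exocrine pancreas list mean was 11.45 to 11.62 in control pools at 5 dpf and 5.83 to 6.49 in knockdown pools of this age. In the other arrays it was 8.76 or less. These organs lie behind the gills, and whether the control pools at 5 dpf held tissue from there was not tested. At 10 dpf, with 2.67% of all genes called, 3 cone genes fell, among them pde6c, the cone phosphodiesterase (-0.70, adjusted p = 0.00321). Of the rod, pigment and Müller glia genes 0 were called, and at this share 0 calls is no result about a short list. The cone list lay at 9.08 to 9.30 in controls and 8.83 to 9.02 in knockdown. At 15 dpf, with 12.0% of all genes called, 3 of 14 lens genes, 9 of 14 pancreas genes and 1 of 9 Müller glia genes rose. The last was vim, an intermediate filament gene of Müller and other glia (0.71, adjusted p = 0.00586). The Müller glia list lay at 7.86 to 8.04 in controls and 8.09 to 8.15 in knockdown. At 20 dpf, with 14.5% of all genes called, 4 of 10 liver genes rose (median 0.64), 2 rod genes fell, 2 cone genes fell and 1 rose, and 1 pigment gene fell. The liver list lay at 6.28, 6.22 and 5.399 in the knockdown pools of this age and at 5.39 to 5.48 in controls. The part of these shifts in the changes of rlbp1a, rbp3, rbp4l and rgra was not tested. Control replicate 2 at 10 dpf was the lowest of its group in rpe65a, rlbp1a, rlbp1b, stra6 and rbp3 but the highest in rbp4l, and the rod list ranged from 7.86 to 8.51 in that group.

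**Figure D4:**
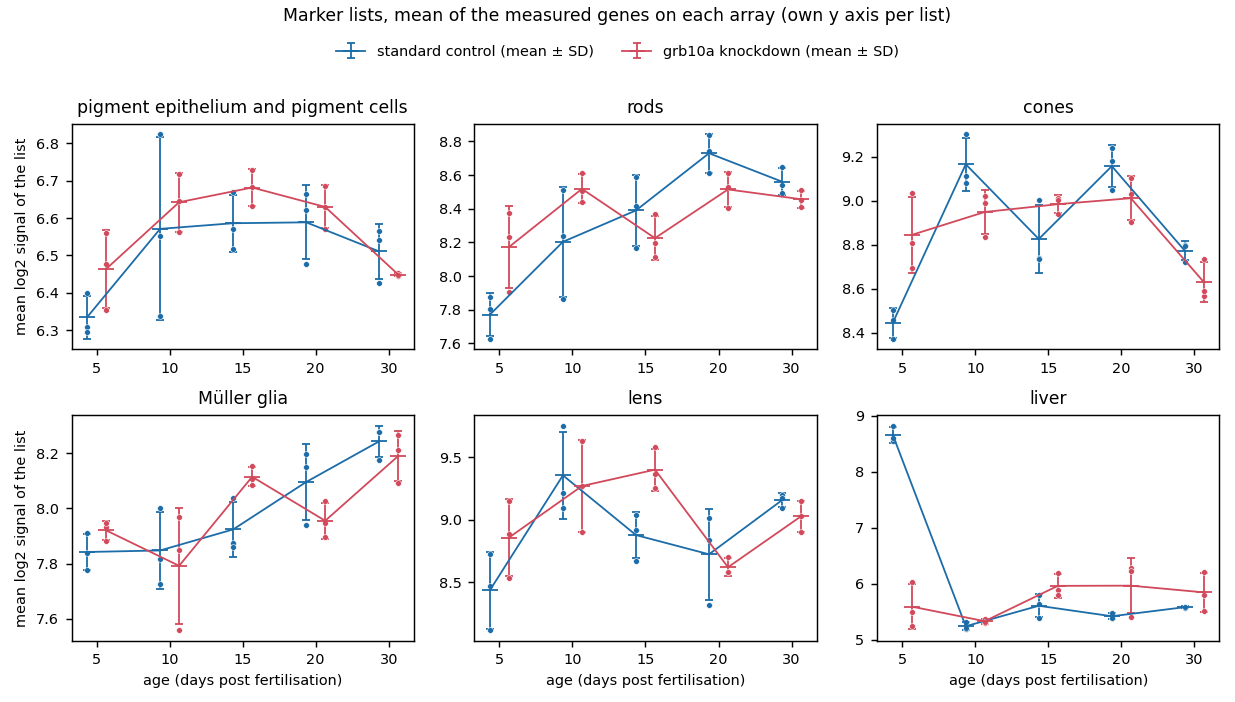
Mean log2 signal of each marker list (y axis, own scale per list) against age in days post fertilisation (x axis), with single arrays as points and the mean ± SD of 3 pools, in blue for control and red for knockdown. At 30 dpf the pigment, cone and Müller glia lists overlap between treatments, and the liver list is high only in controls at 5 dpf. Skin melanophores share the pigment list, and brain glia share the Müller glia list.

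Other genes of retinoid transport and metabolism were taken from a list of 51, of which 38 were measured. At 5 dpf, with 12.0% of all genes called, 5 rose and 6 fell. Those that fell include ttr, the transthyretin gene whose protein accompanies retinol-binding protein in plasma, from 8.92 ± 0.34 to 5.25 ± 0.51 (-3.67, adjusted p = 4.49e-12). The plasma carrier gene rbp4 fell from 11.07 ± 0.12 to 10.19 ± 0.14 (-0.87, adjusted p = 8.22e-05), and the intestinal retinol-binding gene rbp2a fell by 2.18 (adjusted p = 3.28e-06). The dehydrogenase gene dhrs9 fell by 1.45 (adjusted p = 6.81e-08). These falls came beside those of the liver and intestine lists, and their part was not tested. The photoreceptor transporter genes abca4b and abca4a, which clear retinal from outer segments, rose by 0.72 (adjusted p = 0.000238) and 0.61 (adjusted p = 0.00365).

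At 10 and 30 dpf limma called 0 of the 38, with 6 and 4 at an unadjusted p under 0.05. Of all genes 2.67% and 1.00% were called at these ages, shares at which 0 of 38 is no result about the list. At 15 dpf, with 12.0% of all genes called, 6 of the 38 rose and 1 fell. The gene crabp2a, which encodes a cellular retinoic acid-binding protein, fell by 0.99 (adjusted p = 0.00407), from 8.82 ± 0.09 to 7.83 ± 0.06. Rises were found in dhrs9 (0.80), abca4b (0.47), rdh14a (0.50), the photoreceptor retinol dehydrogenase gene rdh8b (0.47) and lratb.2 (0.50), a gene of the lecithin retinol acyltransferase family that stores retinol as ester. At 20 dpf, with 14.5% of all genes called, 5 of the 38 rose and 2 fell. They include crabp2b (0.71, adjusted p = 0.00875), bco2l of the carotenoid oxygenase family (0.44), lratb.2 again (0.51), degs1 (0.57), and, among the fallen, rdh14a (-0.48) and cyp26c1, a retinoic acid hydroxylase gene (-0.57, adjusted p = 0.00493). At 20 dpf crabp2a was at 0.67 (adjusted p = 0.0349), the opposite sign to 15 dpf. For ttr and dhrs9 at 5 dpf, dhrs9 and lratb.2 at 15 dpf, and cyp26c1 at 20 dpf, 1 group was below 6.06. These differences may be understated, which was not tested. For lratb.2 at 20 dpf both groups were below 6.06 (5.48 ± 0.11 in controls and 5.99 ± 0.09 in knockdown), so its rise lies wholly among dim signals.

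**Figure D5:**
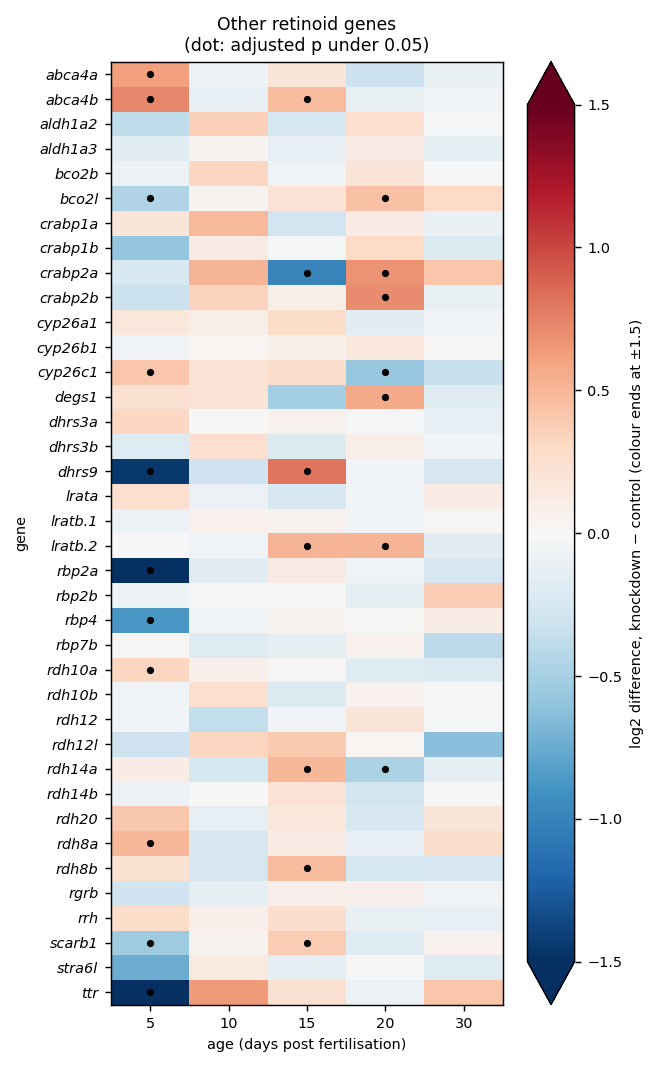
Knockdown minus control on the log2 scale (colour, ending at ±1.5) for the 38 measured genes of the wider retinoid list (rows) at each age in days post fertilisation (columns). Dots mark an adjusted p under 0.05, which number 11, 0, 7, 7 and 0 from 5 to 30 dpf. Of all genes 12.0%, 2.67%, 12.0%, 14.5% and 1.00% were called at these ages.

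The 8 genes did not share 1 course. Likeness was measured as the root mean square difference between 2 genes' 10 group means after each gene was centred on its own mean. The closest pairs were rlbp1b with rpe65a (0.26) and rpe65a with stra6 (0.30), and the farthest was rbp4l with rlbp1b (0.93). The paralogs rlbp1a and rlbp1b differed by 0.58. Among 11933 other named genes of sufficient signal, the nearest to rpe65a were eed (0.23), ogfod1 (0.24) and tmed1b (0.24). For rlbp1b they were golim4b, ppp1r3c2b and sars2 (0.20 to 0.22), and for stra6 ilkap, eral1 and cdk4 (0.12 to 0.13). The nearest to rlbp1a were glra2 (0.07), dync2li1 and CNTROB. Nearest to rgra were klhl23, gpr158a and tacr3a (0.13 to 0.15). The genes nearest to rbp4l were guca1g (0.28) and guca1d (0.30), of the guanylate cyclase activator family of photoreceptors, and fech, and those nearest to rbp3 were ablim1a, ube2ql1 and erfl3 (0.15 to 0.19). For rdh5, which varied least (0.20 about its own mean), they were ahcyl2b, phlda1 and layna (0.12 to 0.13).

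The signal of grb10a did not check the labels: it was 1.01 higher in knockdown at 5 dpf (SE 0.12, adjusted p = 3.59e-07) and passed the test at no other age, and a splice-blocking morpholino need not lower the total signal of its target. Where its probes lie with respect to the blocked splice donor was not known here. Array medians over all probe sets lay between 5.51 and 5.63, and the number of arrays limits the precision.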

How the data were processed

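Affymetrix ZebGene 1.0 ST arrays were deposited as log2 values, 1 per probe set. RMA is the method that the submitters' processing notes name, without a version. No further normalization was applied. Of 75212 probe sets, 20806 with 1 symbol were kept, symbols were updated by Entrez identifier, and the brightest probe set stood for each of 19260 genes. The test was limma (version 3.58.1, R 4.3.3), fitting the 30 arrays with a mean for each group, 20 residual and 6.05 prior degrees of freedom, two-sided, adjusted by Benjamini-Hochberg over all genes at a threshold of 0.05. Arrays of a group are separate pools by their labels, so p-values reflect the spread between pools. The genes and lists were chosen with earlier results of these data known. All 8 genes are named; of the wider list those called, at most 6 per comparison by smallest p (crabp2a at 20 dpf was added after its values were seen, like best1, slc16a8, rrh, pde6c and vim); and for each gene the 3 most alike, leaving out clone-based symbols and the dimmest 33.3%. The labels do not say whether the replicate numbers pair the arrays. Of 15 pairs of 1 number and age, 4 had deviations correlated over 0.1 (range -0.116 to 0.275). Other pairs of the same age had a mean correlation of -0.0254, and these values do not settle whether numbers pair arrays. The test was checked on simulated data. Alternatives were an intensity trend, leaving out dim genes, 2 normalizations, the mean of probe sets, array weights, the replicate block, only the compared arrays, and each array left out. Figures were drawn with matplotlib 3.10.9.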

Additional observations from a re-analysis of the deposited data

Results flagged for a closer look

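Each result here is a knockdown difference whose size varied between ages in limma's F test, with its adjusted p. Among the 8 genes these were rbp3 (0.00102), rpe65a (0.00287), rgra (0.00977), rlbp1b (0.016), rbp4l (0.0236) and stra6 (0.0351). For rpe65a and rlbp1b, knockdown was above all controls at 20 dpf and below all controls at 30 dpf. Arrays did not overlap for 37.5% and 21.3% of all genes at these ages. At 20 dpf limma called neither of the genes in the main fit (adjusted p = 0.101 and 0.255). The signal of rbp3 was higher in knockdown at 5 dpf and lower, without a call, at 10 and 20 dpf (limma, adjusted p = 0.123 and 0.0753). The change from 20 to 30 dpf differed between treatments for rpe65a (adjusted p = 0.00124), rlbp1b (0.007) and rbp3 (0.0486), a comparison added after the values were seen. The call of rbp3 was lost when any single compared array was left out. In the wider retinoid list the difference varied with age for 20 of 38 genes. Of these, 14 were named at single ages in the report: ttr (6.55e-10), dhrs9 (4.75e-07), rbp2a (0.000456), crabp2a (0.000656), cyp26c1 (0.000852), abca4b (0.00106), bco2l (0.00163), rbp4 (0.00212), rdh14a (0.00398), abca4a (0.00599), rdh8b (0.00874), degs1 (0.0107), lratb.2 (0.0153) and crabp2b (0.0213). Of all genes tested 31.7% passed this F test. All measured liver genes (10), exocrine pancreas genes (14) and intestine genes (8) passed it too, as did 11 of 20 cone genes. The mean of ttr was 8.92 in controls at 5 dpf and 4.84 to 5.48 in every other group. The part of the control pools at 5 dpf in these results was not tested.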

How the results depend on the processing

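With only the compared arrays in the fit, the count of the 8 genes called was 1 at 5 dpf, 0 at 10 dpf, 0 at 15 dpf, 2 at 20 dpf (rbp3 and rpe65a), 3 for controls from 5 to 10 dpf and 0 from 10 to 15 dpf. The counts over all 19260 genes moved too, in the same order to 1442, 0, 694, 3167, 3605 and 1848. In the main fit they were 2308, 515, 2316, 2786, 5483 and 4731. A second quantile normalization gave 1 at 20 dpf, and array quality weights gave 2 at 20 dpf, 3 for controls from 5 to 10 dpf and 1 from 10 to 15 dpf. Over all genes the normalization called 2920 at 20 dpf, and array weights called 4787, 4932 and 3118 in these comparisons. Leaving out 1 array at a time, 0 to 3 of the 8 were called at 10 dpf. For 15 dpf the range was 0 to 1, and for 30 dpf 0 to 2. Controls gave 3 to 5 from 5 to 10 dpf and 1 to 3 from 10 to 15 dpf. Knockdown from 20 to 30 dpf gave 0 to 1, and the F test 4 to 7. Over all genes the lowest and highest counts were, in this order, 105 and 1096, 952 and 2715, and 103 and 175. For the control steps they were 4299 and 5357, then 3428 and 4497. The knockdown step had 1148 and 1868, and the F test 5203 and 6781. The main fit called 515, 2316, 193, 5483, 4731, 2232 and 6105 genes in the same order. The totals thus moved too, and the cause was not tested. The replicate block, although the labels give no pairing, changed 2 calls: rbp3 was lost from 5 to 10 dpf in controls, leaving 4, and from the comparison of steps, leaving 2. Over all genes the block called 5547 and 1475 in these, against 5483 and 1457 in the main fit. A second quantile normalization and median centring also lost rbp3 from the comparison of steps, leaving 2, with 1144 and 1332 called over all genes. The count for the comparison of steps rose to 4, with stra6, under an intensity trend, without dim genes, with array weights and with only the compared arrays. Over all genes these settings called 1590, 1554, 2693 and 2108, against 1457 in the main fit. The replicate block kept the counts at 5 dpf (2) and 30 dpf (3), with 2321 and 199 called over all genes, against 2308 and 193 in the main fit. An intensity trend, leaving out dim genes, the mean of probe sets, the block and the fit of only the compared arrays can move the p of a knockdown difference of these genes but not its size. Under the settings that can move the size, 18 values changed sign, none of them of the 7 called differences. With a second quantile normalization rpe65a was at -0.0016 at 5 dpf and stra6 at -0.052 at 20 dpf, with median centring stra6 was at -0.017 at 20 dpf, and with array weights rlbp1b was at -0.017 at 5 dpf. Over single arrays left out the ranges were -0.20 to 0.20 for rpe65a at 5 dpf, -0.13 to 0.13 for rlbp1b at 5 dpf, -0.60 to 0.036 for rpe65a at 10 dpf, -0.12 to 0.27 for rlbp1a at 10 dpf, -0.18 to 0.12 for stra6 at 10 dpf, -0.10 to 0.12 for rlbp1a at 20 dpf and -0.034 to 0.079 for stra6 at 20 dpf. The 3 pools per group limit what can be detected.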

Other observations

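Over development in control heads, from 5 to 30 dpf, 13 of the 38 measured genes of the wider retinoid list rose and 13 fell in limma, against 51.0% of all genes called. Of the 6 with the smallest p, those that rose were the retinoic acid-binding protein genes crabp2a (1.89, adjusted p = 6.43e-08) and crabp2b (1.84, adjusted p = 6.85e-09), aldh1a3, which makes retinoic acid from retinaldehyde (1.04, adjusted p = 2.76e-07), and dhrs3a, which reduces retinaldehyde (1.24, adjusted p = 1.02e-09). Those that fell were ttr (-4.08, adjusted p = 2.86e-13) and rbp2a (-2.37, adjusted p = 1.66e-07). All 10 liver and all 8 intestine genes measured also fell over this time, and their part in these falls was not tested.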
